A study of Homo sapiens with 6 samples.

Results

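Small nucleolar RNA host genes were followed in RNA sequencing of SW872-S, a human liposarcoma cell line. The set was all rows of the expression table whose gene name is SNHG followed by a number, together with GAS5, ZFAS1 and EPB41L4A-AS1, which gave 31 of 60843 genes. Members were taken by name and not by level or change, but the set was chosen with earlier results of these data known. The TP53INP2_OE group (3 libraries) carried a plasmid overexpressing TP53INP2, a protein with a part in autophagosome formation, and the NC group (3 libraries) was the negative control. Both groups were the same line, grown in DMEM with fetal bovine serum. The labels do not give the promoter of the plasmid, what the control cells carried, the time after transfection, or whether the cells were a pool or a clone. The study's design text speaks of a pair of cell sources without naming them, so a further difference between the groups cannot be told apart from the plasmid.

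A host gene of this kind is transcribed and spliced, and small nucleolar RNAs (snoRNAs) are cut out of its introns. C/D box snoRNAs guide ribose methylation and H/ACA box snoRNAs guide pseudouridylation, mostly of ribosomal RNA, while the spliced exons often have no conserved reading frame. Many host genes start transcription in a run of pyrimidines, as messenger RNAs of the translation apparatus do (terminal oligopyrimidine or TOP RNAs), and the spliced RNA of several, such as GAS5 and ZFAS1, is known to be degraded by nonsense-mediated decay when ribosomes read it.

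The table gave FPKM, fragments per kilobase of gene scaled to each library's total, so levels below are per length. Behind these values stood 16038062 to 17607612 gene-assigned reads in each library. TP53INP2 itself had 18.9, 23.4 and 27.1 FPKM in TP53INP2_OE libraries and 10.6, 9.45 and 9.67 FPKM in NC libraries (log2 fold change 1.13, standard error 0.12, limma adjusted p = 0.00282), so the labels were borne out by the targeted gene. VIM and FN1 were abundant and all 3 liposarcoma genes looked at (MDM2, CDK4, HMGA2) were present, but 3 of 6 mesenchymal markers (COL1A2, COL3A1, THY1) stayed at or below 0.291 FPKM in every library. None of 5 adipocyte, 3 epithelial or 3 immune markers reached 1 FPKM in any library. Of 3 endothelial genes, CDH5 and PECAM1 were present in both groups, CDH5 at 27.3 to 28.6 FPKM in TP53INP2_OE libraries and 30.1 to 35.0 FPKM in NC libraries. VWF stayed below 1 FPKM, at 0.658 to 0.825 FPKM over all libraries.

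Of the 31 host genes, 23 averaged 0.5 FPKM or more across all 6 libraries and were tested. In TP53INP2_OE 5 fell and 0 rose (limma on log2(FPKM + 1), Benjamini-Hochberg over all 14791 tested genes, threshold 0.05). The 5 were SNHG32, SNHG19, SNHG7, SNHG12 and SNHG17. They were 21.7% of the tested host genes, against 18.6% of all tested genes that fell, so the share that fell was near that of all tested genes. Of all tested genes 16.4% rose and 35.0% passed in either direction. All the host genes are lncRNA rows, and among the 1597 tested lncRNA rows 8.89% passed and 4.26% fell, smaller shares than in the host genes. These differences between shares were not tested. At an unadjusted p below 0.05 there were 6 host genes, with GAS5 as the only one on the upper side. Even after adjustment 35.0% of all tested genes passed, a larger share than these 6 of the 23. With limma's voom on reads, SNHG14 passed as higher. SNHG32 and SNHG19 fell most, to 0.564 and 0.486 times their NC means. The other 18 host genes did not pass, and 17 of the 23 had a log2 fold change within 0.2 of 0.

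Sequences of the 5 host genes that fell are shown first. The pyrimidine run at the start can be read in them, and a snoRNA inside is printed for all but SNHG17. The windows are 41 bases centred on the RefSeq transcription start (GRCh38.p14), on the transcript's strand, and capitals mark the longest unbroken run of C or T within 10 bases of that start. SNHG32 is at chr6:31834896-31834936 on the plus strand. SNHG19 is at chr16:2155338-2155378, SNHG7 at chr9:136728164-136728204, SNHG12 at chr1:28581853-28581893 and SNHG17 at chr20:38435308-38435348, all on the minus strand. ZFAS1, at chr20:49278622-49278662 on the plus strand, and SNHG5, at chr6:85678713-85678753 on the minus strand, are given beside them as host genes that did not pass.
SNHG32: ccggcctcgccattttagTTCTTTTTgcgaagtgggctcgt
SNHG19: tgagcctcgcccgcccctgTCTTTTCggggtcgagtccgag
SNHG7: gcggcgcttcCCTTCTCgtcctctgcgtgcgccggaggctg
SNHG12: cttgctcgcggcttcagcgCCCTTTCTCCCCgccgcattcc
SNHG17: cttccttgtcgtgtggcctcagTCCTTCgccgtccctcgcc
ZFAS1: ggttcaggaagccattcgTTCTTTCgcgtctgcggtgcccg
SNHG5: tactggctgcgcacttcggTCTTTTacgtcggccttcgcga

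A run of at least 6 C or T on the transcript's strand lay within 10 bases of the start in 14 of the 21 tested host genes with a RefSeq promoter (66.7%). The same held for 23.1% of all 35116 promoters in the RefSeq table. All 5 host genes that fell had such a run, and so did 9 of 16 (56.2%) that did not pass, so the run was present in both. The motif CTTT was found within 20 bases of the start in 10 of the 21 (47.6%) on the transcript's strand, against 16.3% of all promoters. On the other strand it was found in 2 of the 21 (9.52%), against 12.9% of all promoters. Both searches read the same bases in part, since a CTTT can lie within a longer run, and a match describes letters and not a working element. The RefSeq start was not always the start of the measured gene. Among the 5 that fell, the distance was 308 bases for SNHG32, 1259 for SNHG12, 81 for SNHG17 and 0 for SNHG19 and SNHG7. It was 163 bases for GAS5, whose longest run was 3 bases, and 154975 bases for SNHG14.

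Examples of the snoRNAs inside SNHG32, SNHG19, SNHG7 and SNHG12 show what these transcripts carry. Sequences are from GENCODE 29 (GRCh38), in the direction of the transcript. Capitals mark the C box (TGATGA) and the D box (CTGA) in the C/D box snoRNAs, and the ACA box in the H/ACA box snoRNAs. The search found no box in any snoRNA row of SNHG17, nor in some other rows not printed, such as SNORA44 in SNHG12. SNORD48, at chr6:31835263-31835326, and SNORD52, at chr6:31837076-31837142, are in SNHG32 on the plus strand. SNORD60, at chr16:2155023-2155105, is in SNHG19, SNORA17A, at chr9:136726747-136726879, is in SNHG7 and SNORA61, at chr1:28579764-28579893, is in SNHG12, all on the minus strand.
SNORD48: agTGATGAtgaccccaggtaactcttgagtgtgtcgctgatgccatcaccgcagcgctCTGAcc
SNORD52: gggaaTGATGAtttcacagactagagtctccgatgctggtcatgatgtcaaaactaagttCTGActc
SNORD60: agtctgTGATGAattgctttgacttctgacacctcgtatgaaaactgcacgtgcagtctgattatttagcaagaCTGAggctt
SNORA17A: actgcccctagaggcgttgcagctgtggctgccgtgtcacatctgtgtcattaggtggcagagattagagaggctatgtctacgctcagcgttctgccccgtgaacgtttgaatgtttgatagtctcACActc
SNORA61: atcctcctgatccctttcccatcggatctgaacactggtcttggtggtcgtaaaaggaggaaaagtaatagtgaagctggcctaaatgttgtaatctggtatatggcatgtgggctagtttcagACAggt

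Levels of the 23 tested host genes spanned means of 0.784 to 30.7 FPKM over all 6 libraries. SNHG6, GAS5, SNHG1 and SNHG29 were the 4 with at least 20 FPKM, and their ranges over all 6 libraries overlapped one another. Within each library GAS5 stood above SNHG1 and SNHG6 above SNHG29. The order of the other pairs among these 4 changed between libraries. SNHG3 came next at about 16 FPKM in both groups. Below it SNHG32 changed its place between the groups. In TP53INP2_OE libraries it averaged 10.1 FPKM, below SNHG16 at 12.2 FPKM, and in NC libraries it averaged 17.9 FPKM, above both SNHG16 at 11.5 FPKM and SNHG3 at 15.9 FPKM. SNHG14, the large imprinted gene that carries the SNORD115 and SNORD116 clusters, had the lowest level per length of those tested although 1478 to 1810 reads per library fell on it, because its row counts 122609 bases.

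**Figure D1:**
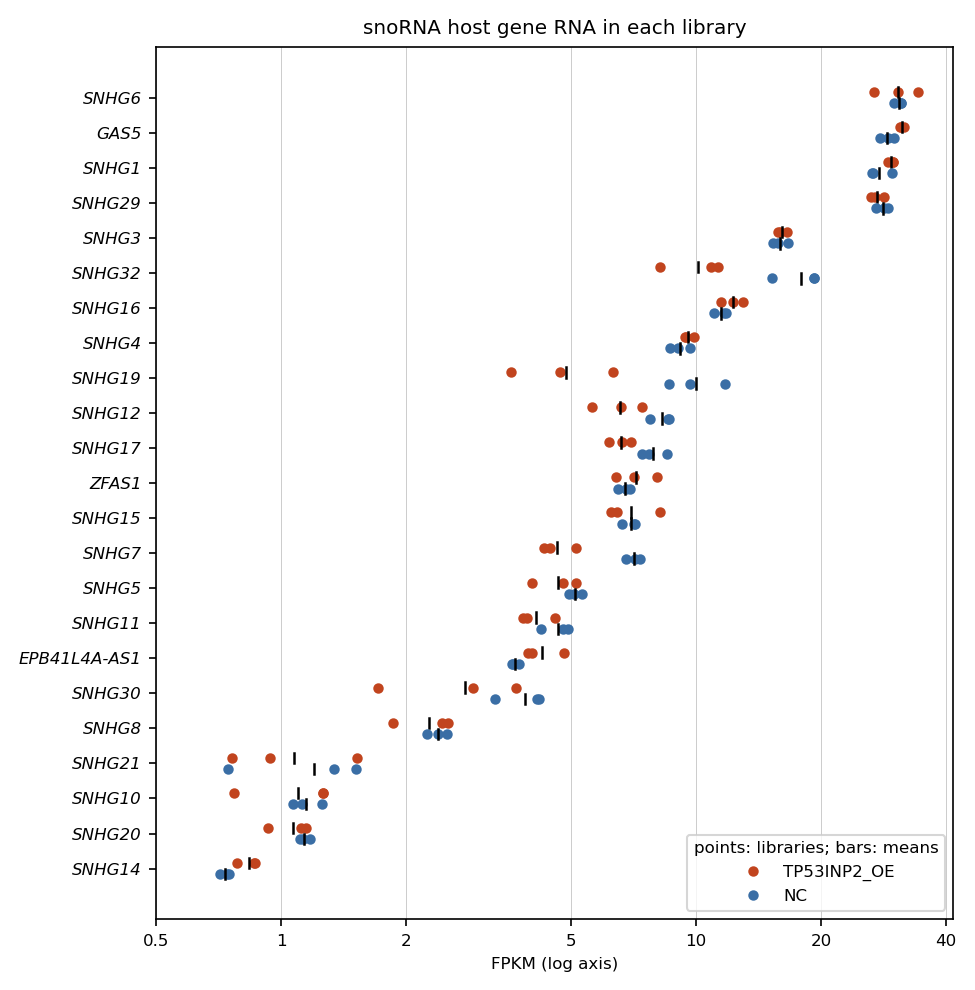
FPKM (log axis) of the 23 tested host genes in each library, TP53INP2_OE above NC in each row, with points for libraries and short bars for group means. SNHG32, SNHG19 and SNHG7 have all 3 TP53INP2_OE points clearly left of the NC points, while SNHG6, GAS5, SNHG1 and SNHG29 form the highest group, between 26.3 and 34.3 FPKM.

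SNHG32 (ENSG00000204387, chr6:31834608-31839766, plus strand) hosts SNORD48 and SNORD52. It had 11.3, 8.18 and 10.9 FPKM in TP53INP2_OE libraries and 19.3, 19.3 and 15.2 FPKM in NC libraries. Every TP53INP2_OE library was below every NC library, and the lowest NC library stood apart from the other two. The means were 10.1 ± 1.69 FPKM in TP53INP2_OE and 17.9 ± 2.33 FPKM in NC (SD, n = 3 each), a log2 fold change of -0.77 (standard error 0.14, limma adjusted p = 0.00702). Between 253 and 330 reads in TP53INP2_OE libraries and between 489 and 614 reads in NC libraries lay behind these values. The gene passed in all 14 alternative settings, with log2 fold changes between -0.88 and -0.64. In RNA of a whole culture, fewer cells with a transcript and less of it per cell cannot be told apart, here and in all results below.

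SNHG19 (ENSG00000260260, chr16:2154797-2155358, minus strand) is a short gene of 342 exonic bases that hosts SNORD60. Its values were 4.70, 3.58 and 6.31 FPKM in TP53INP2_OE libraries and 8.61, 11.7 and 9.68 FPKM in NC libraries. The groups did not overlap, but the libraries within each group were spread widely, since a gene of this length collected only 21 to 35 reads in TP53INP2_OE libraries and 48 to 71 reads in NC libraries. The mean was 4.86 ± 1.37 FPKM in TP53INP2_OE and 10.0 ± 1.58 FPKM in NC (SD, n = 3 each), with a log2 fold change of -0.93 (standard error 0.18, limma adjusted p = 0.00964). It too passed in all 14 alternatives, with log2 fold changes between -1.10 and -0.76.

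SNHG7 (ENSG00000233016, chr9:136721366-136728184, minus strand), host of SNORA17A and further H/ACA box snoRNAs, had 5.14, 4.31 and 4.45 FPKM in TP53INP2_OE libraries and 7.14, 6.79 and 7.31 FPKM in NC libraries. Its groups lay far apart relative to their spread, with means of 4.63 ± 0.446 FPKM in TP53INP2_OE and 7.08 ± 0.264 FPKM in NC (SD, n = 3 each). The log2 fold change was -0.52 (standard error 0.07, limma adjusted p = 0.00328). The call held without any 1 of the 6 libraries and was lost in 1 of 14 alternatives, a fit adjusted for GC content and gene length over all genes (log2 fold change -0.21, adjusted p = 0.0880).

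SNHG12 and SNHG17 fell less, and their calls depended on single libraries. SNHG12 (ENSG00000197989, chr1:28578538-28583132, minus strand) carries SNORA61, SNORA44, SNORA16A and SNORD99. It had 6.59, 5.62 and 7.41 FPKM in TP53INP2_OE libraries and 7.74, 8.58 and 8.55 FPKM in NC libraries, so the highest TP53INP2_OE library came close to the lowest NC library. Its log2 fold change was -0.31 (standard error 0.09, limma adjusted p = 0.0409). Leaving out 1 library ended the call in 5 of 6 cases. The adjusted p was 0.0753 without TP53INP2_OE replicate 2, with the log2 fold change at -0.22, and 0.0817 without TP53INP2_OE replicate 1. Without NC replicate 1, 2 or 3 it was 0.0642, 0.118 and 0.107 in that order.

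SNHG17 (ENSG00000196756, chr20:38419638-38435409, minus strand) hosts H/ACA box snoRNAs of the SNORA71 family. It had 6.95, 6.17 and 6.61 FPKM in TP53INP2_OE libraries and 7.71, 8.52 and 7.40 FPKM in NC libraries. The groups did not overlap, and the gap between them was narrow. This was a log2 fold change of -0.23 (standard error 0.07, limma adjusted p = 0.0348). The call was lost without NC replicate 1 (adjusted p = 0.0804), NC replicate 2 (0.0994), TP53INP2_OE replicate 2 (0.0949) or TP53INP2_OE replicate 3 (0.0769).

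**Figure D2:**
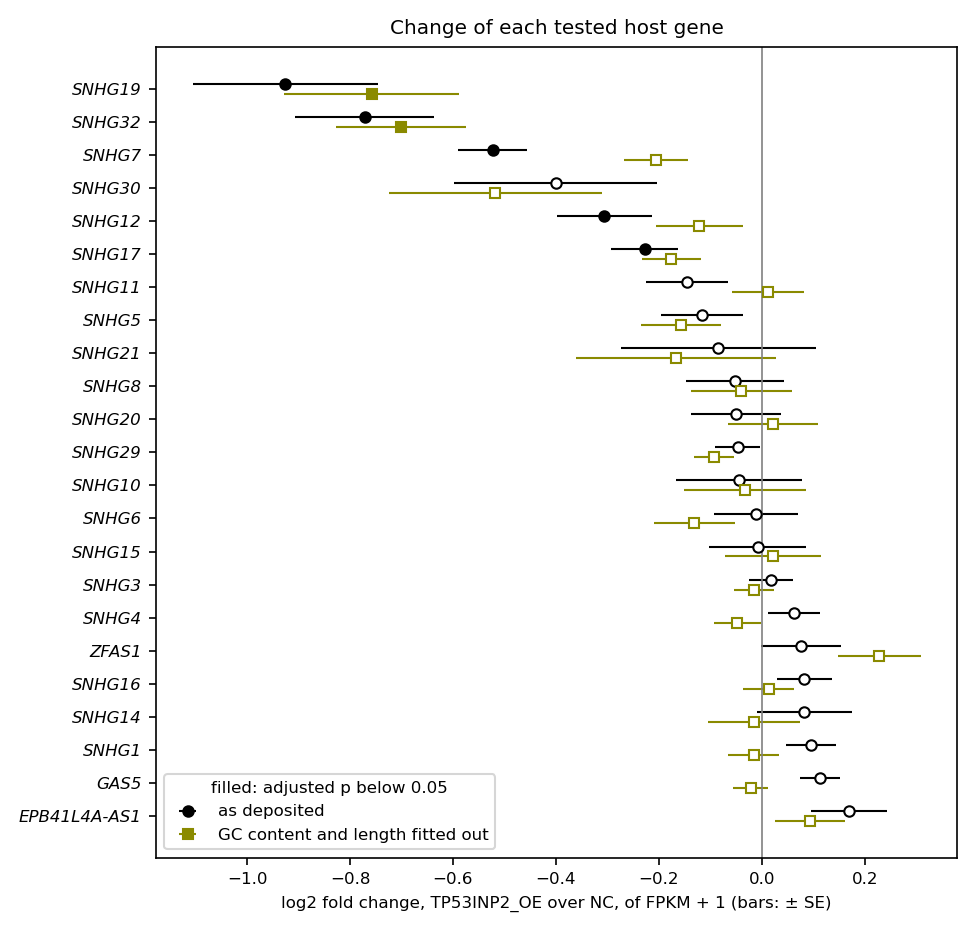
Log2 fold change (TP53INP2_OE over NC, FPKM + 1) of each tested host gene, with standard errors, as deposited (circles) and adjusted for GC content and gene length (squares), and filled symbols for an adjusted p below 0.05. As deposited, 5 host genes are filled, and after the adjustment only SNHG32 and SNHG19 are.

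GC content moved with these changes. Over all tested genes with a known GC content the Spearman correlation of GC content with the log2 fold change was -0.677 (n = 14548 genes), and over the 23 host genes it was -0.551, as a description. The 5 host genes that fell had a median GC content of 56.1%, against 45.8% for the 18 that did not pass and 48.0% for all tested genes. SNHG7 was highest among the 5 at 65.9%, followed by SNHG12 at 56.6%, SNHG19 at 56.1%, SNHG17 at 51.6% and SNHG32 at 51.0%. In the fit adjusted for GC content and gene length, called the GC-adjusted fit below, 10.4% of all genes passed (5.88% fell and 4.53% rose), and 2 host genes fell. SNHG32 then stood at a log2 fold change of -0.70 (limma adjusted p = 0.0229) and SNHG19 at -0.76 (0.0400). SNHG7, SNHG12 and SNHG17 no longer passed, at -0.21, -0.12 and -0.18. What lies behind the relation with GC content was not tested. Not every GC-rich host gene passed. ZFAS1, at 55.7% GC, had a log2 fold change of 0.076 as deposited and 0.23 in the GC-adjusted fit. SNHG11, at 55.5% GC, stood at -0.15 and 0.012, and neither gene passed in either fit. The log2 fold change of the 23 had a Spearman correlation of 0.19 with gene length, 0.16 with mean level and -0.053 with the number of snoRNA rows inside, again as descriptions.

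**Figure D3:**
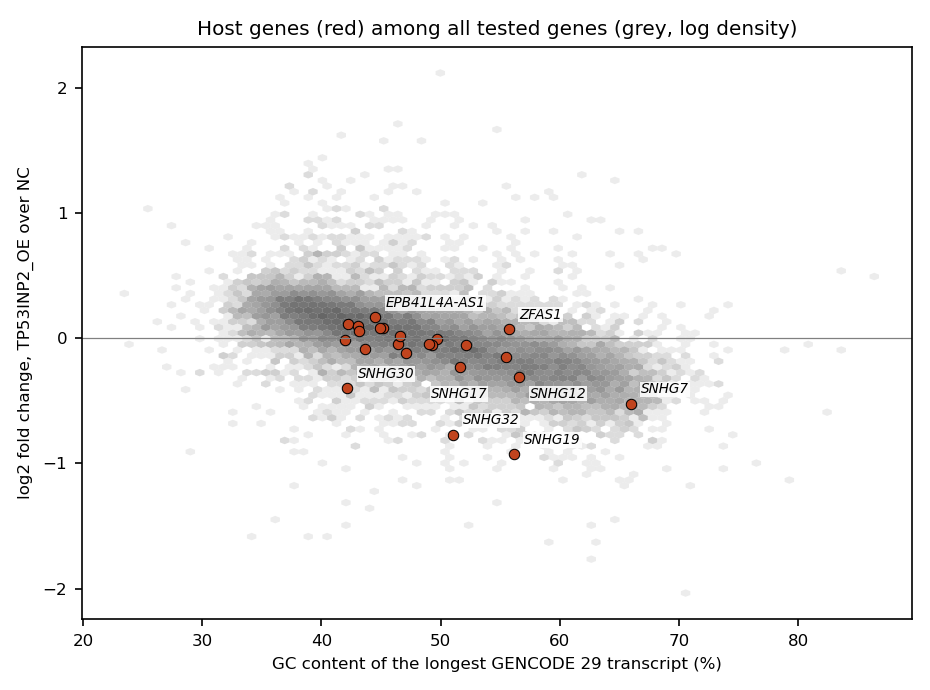
Log2 fold change (TP53INP2_OE over NC) against GC content (%) of the longest GENCODE 29 transcript, for all tested genes (grey, log density) and the host genes (red points, some named). Fold changes decline with GC content over all genes, and SNHG32 and SNHG19 are the lowest red points.

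The most abundant host genes did not pass. SNHG6 (chr8:66921684-66926398), which carries SNORD87, had 30.7, 34.3 and 26.9 FPKM in TP53INP2_OE libraries and 31.1, 31.1 and 29.98 FPKM in NC libraries, a log2 fold change of -0.011 (standard error 0.08, limma adjusted p = 0.933). Its TP53INP2_OE libraries were spread on both sides of the NC libraries. SNHG29 had 28.4, 27.1 and 26.3 FPKM in TP53INP2_OE libraries and 29.04, 28.4 and 27.2 FPKM in NC libraries, a log2 fold change of -0.047. SNHG3, host of the paired H/ACA snoRNAs SNORA73A and SNORA73B, had 16.6, 15.8 and 16.0 FPKM in TP53INP2_OE libraries and 15.3, 16.6 and 15.8 FPKM in NC libraries, with a log2 fold change of 0.018. For both genes the group ranges overlapped and the standard error was 0.04.

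GAS5 (ENSG00000234741, chr1:173858559-173868882, minus strand), a growth-arrest-linked host gene whose RNA is a known substrate of nonsense-mediated decay, lay near the threshold on the upper side. It had 31.0, 31.8 and 31.2 FPKM in TP53INP2_OE libraries and 27.7, 29.99 and 28.97 FPKM in NC libraries. All TP53INP2_OE libraries were above all NC libraries, by a small step. The log2 fold change was 0.11 (standard error 0.04, limma adjusted p = 0.0623). It passed in 3 alternatives, which were a mean of at least 5 FPKM (adjusted p = 0.0470), TPM (0.0470) and quantile normalization (0.0207). In the GC-adjusted fit it was -0.021 (adjusted p = 0.738), so its direction depended on that setting.

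SNHG1, which carries C/D box snoRNAs such as SNORD25 to SNORD28, had 29.8, 29.8 and 29.04 FPKM in TP53INP2_OE libraries and 26.7, 29.6 and 26.5 FPKM in NC libraries. NC replicate 2 lay within the TP53INP2_OE range and the other NC libraries below it. The log2 fold change was 0.10 (limma adjusted p = 0.179), and without NC replicate 2 it was 0.15 (adjusted p = 0.0464). EPB41L4A-AS1, host of SNORA13, had 4.02, 4.80 and 3.93 FPKM in TP53INP2_OE libraries and 3.62, 3.75 and 3.61 FPKM in NC libraries. Its groups did not overlap, and its log2 fold change of 0.17 was the highest of the set but did not pass (standard error 0.07, adjusted p = 0.12). SNHG14 had 0.784, 0.860 and 0.863 FPKM in TP53INP2_OE libraries and 0.740, 0.713 and 0.747 FPKM in NC libraries. At so low a level the added 1 FPKM shrank its log2 fold change to 0.083 (adjusted p = 0.533). On the recovered reads, without that pseudocount, it was 0.19 (limma with voom, adjusted p = 0.00696). The GC-adjusted fit gave -0.015 (adjusted p = 0.938).

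ZFAS1, host of the SNORD12 family, had 6.398, 7.07 and 8.07 FPKM in TP53INP2_OE libraries and 6.80, 6.92 and 6.49 FPKM in NC libraries. The TP53INP2_OE libraries ran from below the NC range to above it (log2 fold change 0.076, standard error 0.08, limma adjusted p = 0.495). The GC-adjusted fit moved it to 0.23 (adjusted p = 0.124), the highest corrected value of the set. SNHG30, host of SNORD7, had 3.68, 1.72 and 2.90 FPKM in TP53INP2_OE libraries and 3.27, 4.15 and 4.19 FPKM in NC libraries. TP53INP2_OE replicate 2 was the lowest library and TP53INP2_OE replicate 1 lay inside the NC range. The log2 fold change of -0.40 had a standard error of 0.20 (adjusted p = 0.164). With voom on its 47 to 119 reads per library it was -0.56 (adjusted p = 0.0337).

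The other 9 tested host genes, SNHG16, SNHG4, SNHG15, SNHG5, SNHG11, SNHG8, SNHG21, SNHG10 and SNHG20, had overlapping groups. SNHG16, which carries the SNORD1 family, averaged 12.2 ± 0.744 FPKM in TP53INP2_OE and 11.5 ± 0.392 FPKM in NC (log2 fold change 0.082). SNHG4, host of SNORA74A, averaged 9.58 ± 0.250 FPKM in TP53INP2_OE and 9.13 ± 0.507 FPKM in NC (0.063). SNHG15 averaged 6.95 ± 1.06 FPKM in TP53INP2_OE and 6.95 ± 0.277 FPKM in NC, with TP53INP2_OE replicate 3 above the other libraries. SNHG5, host of the SNORD50 pair, averaged 4.65 ± 0.564 FPKM in TP53INP2_OE and 5.10 ± 0.185 FPKM in NC (-0.12), and SNHG11, which lies near SNHG17 on chromosome 20, averaged 4.11 ± 0.411 FPKM in TP53INP2_OE and 4.64 ± 0.366 FPKM in NC (-0.15). SNHG8, SNHG21, SNHG10 and SNHG20 had log2 fold changes between -0.084 and -0.044. SNHG21 rested on 13 to 26 reads per library, and its libraries ranged from 0.746 to 1.52 FPKM with no order by group.

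Group ranges did not overlap for 8 of the 23 (34.8%), with TP53INP2_OE above NC for GAS5, EPB41L4A-AS1 and SNHG14 and below NC for the 5 that fell. Over all tested genes this share was 50.8%, with 25.2% above and 25.6% below, against 13.0% and 21.7% of the host genes. For each of the 8, the two-sided exact permutation test of 3 libraries against 3 gave p = 0.1, the smallest it can give. The median log2 fold change of the 23 was -0.047, against 0.0032 over all tested genes, and it stayed between -0.078 and -0.0094 in the 14 alternatives.

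The 8 host genes below the limit could hardly be measured. SNHG28, SNHG27 and SNHG18 had no read in any library. SNHG25 had 0, 0 and 2 reads in TP53INP2_OE libraries and 8, 3 and 0 reads in NC libraries. SNHG9 had 1, 2 and 5 reads in TP53INP2_OE libraries and 0, 1 and 2 reads in NC libraries. These are counts at which no difference could be shown. SNHG31 had 1 or 2 reads in TP53INP2_OE libraries and 3 to 8 reads in NC libraries, SNHG22 at most 3 reads in any library, and SNHG26 a single read in 1 NC library.

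The host genes together took 18597, 19516 and 18499 reads in TP53INP2_OE libraries and 18921, 21125 and 20412 reads in NC libraries. This was 0.115% ± 0.00082 of reads in TP53INP2_OE and 0.117% ± 0.00237 in NC (SD, n = 3 each, exact permutation p = 0.1, two-sided). Summed FPKM over the members was 228.9, 223.5 and 226.2 in TP53INP2_OE libraries and 240.1, 250.2 and 235.2 in NC libraries. No TP53INP2_OE library reached the lowest NC library in summed FPKM, with means of 226.2 ± 2.72 in TP53INP2_OE and 242 ± 7.66 in NC (SD, n = 3 each, exact permutation p = 0.1, two-sided). A sum over FPKM weights short genes as much as long ones. It also holds the host genes that fell, such as SNHG32 (mean 10.1 FPKM in TP53INP2_OE and 17.9 FPKM in NC) and SNHG19 (4.86 and 10.0 FPKM). In contrast, 17 of the 23 tested host genes had a log2 fold change within 0.2 of 0, so the lower sum does not describe the set as a whole.

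Rows for the snoRNAs themselves held few reads. Libraries of this kind capture RNAs of that size poorly. Of 144 snoRNA rows lying inside 30 of the host genes, 84 were in SNHG14, 7 in SNHG1 and 5 each in SNHG12 and SNHG17, and those of GAS5 were not analysed here. Only 11 rows had a read in any library. Their reads summed to 107, 68 and 79 in TP53INP2_OE libraries and to 101, 98 and 78 in NC libraries (exact permutation p = 0.7, two-sided). These groups overlapped. Of the 11 rows, 10 reached the limit for testing and 1 passed, against 35.0% of all tested genes. SNORA71B in SNHG17 had 4.77, 4.28 and 4.53 FPKM in TP53INP2_OE libraries and 6.32, 6.02 and 4.95 FPKM in NC libraries (log2 fold change -0.29, standard error 0.09, limma adjusted p = 0.0412), from 20 or 21 reads in TP53INP2_OE libraries and 24 to 29 reads in NC libraries. Its host fell too, and reads from the host's unspliced RNA and from the snoRNA cannot be told apart. It did not pass in the GC-adjusted fit (adjusted p = 0.168). SNORA73B in SNHG3 had the most reads, 45, 23 and 40 in TP53INP2_OE libraries and 36, 39 and 31 in NC libraries, and did not pass (adjusted p = 0.914).

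Several host genes share bases with another gene, and since it is not given whether reads were assigned by strand, such reads cannot be assigned with certainty. SNHG3 lies inside RCC1, which encodes the nucleotide exchange factor of the GTPase Ran, on the same strand over 4913 bases. RCC1 fell to 29.1 ± 2.16 FPKM in TP53INP2_OE, against 37.3 ± 1.34 FPKM in NC (SD, n = 3 each, log2 fold change -0.35, limma adjusted p = 0.00611), while SNHG3 did not pass. ZFAS1 overlaps the start of ZNFX1, an RNA helicase gene on the opposite strand, over 249 bases. ZNFX1 rose to 26.7 ± 0.628 FPKM in TP53INP2_OE, against 21.0 ± 0.503 FPKM in NC (log2 fold change 0.33, adjusted p = 0.00284). Neither neighbour's call was shared by the host gene, and both neighbours also passed in the GC-adjusted fit.

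GLRX5, a gene of iron-sulphur cluster assembly, overlaps SNHG10 on the opposite strand over 1387 bases and fell to 18.8 ± 1.31 FPKM in TP53INP2_OE, against 24.1 ± 0.453 FPKM in NC (limma adjusted p = 0.00528). SEC14L1 overlaps SNHG20 on the same strand over 11154 bases and fell slightly (log2 fold change -0.17, adjusted p = 0.0244), a call lost in the GC-adjusted fit (adjusted p = 0.176). The lncRNA AC093484.4, opposite SNHG29, had 3.80 ± 1.45 FPKM in TP53INP2_OE and 6.34 ± 0.790 FPKM in NC (log2 fold change -0.65, adjusted p = 0.0443), and did not pass in the GC-adjusted fit (adjusted p = 0.0513). For SNHG7, the neighbour on the opposite strand is DIPK1B, which shares 3377 bases with it. DIPK1B averaged 3.97 ± 0.306 FPKM in TP53INP2_OE and 3.90 ± 0.333 FPKM in NC (adjusted p = 0.846), and rose in the GC-adjusted fit (log2 fold change 0.33, adjusted p = 0.0339). Among the other neighbours, ZBTB37 and GAS5-AS1 (at GAS5), SIL1 (at SNHG4), TRNAU1AP (at SNHG12) and those of SNHG14 (UBE3A and SNRPN) did not pass. SNHG32, SNHG19 and SNHG17 overlapped no gene averaging 0.5 FPKM or more, apart from the SNORA71B row.

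**Figure D4:**
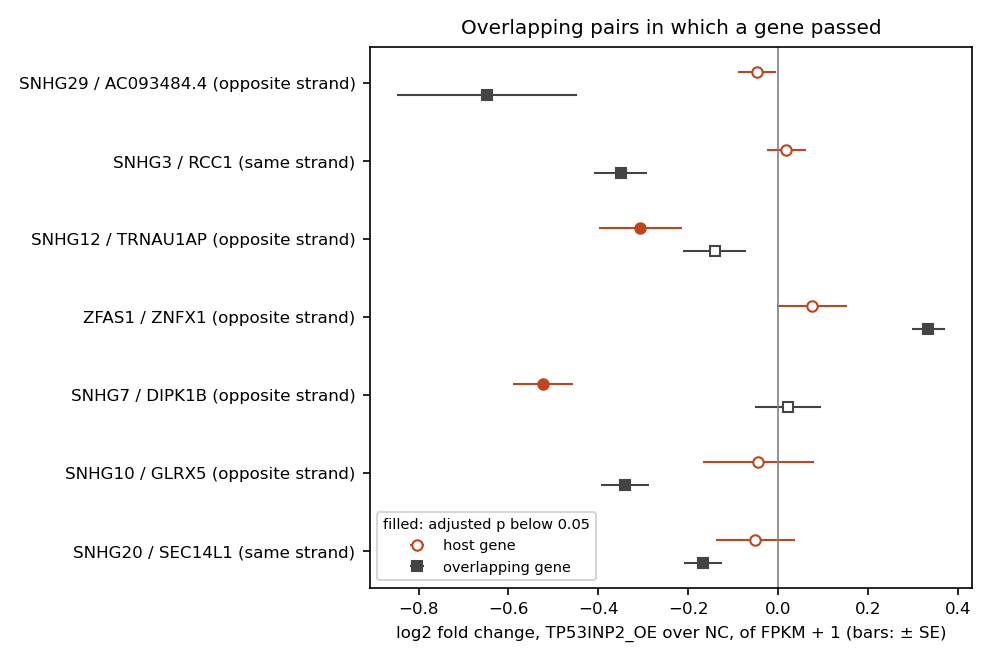
Log2 fold change (TP53INP2_OE over NC, FPKM + 1) with standard errors of host genes (circles) and the genes other than snoRNA rows that they overlap (squares), for pairs in which either gene passed, with filled symbols for an adjusted p below 0.05. In none of these pairs are both filled: RCC1, GLRX5, SEC14L1, AC093484.4 and ZNFX1 passed beside host genes that did not, and SNHG12 and SNHG7 passed beside neighbours that did not.

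The proteins that bind and mature snoRNAs were looked at beside the host genes. Of 21 snoRNP core proteins and assembly factors, 8 fell and 1 rose, so 42.9% passed, against 35.0% of all tested genes. NHP2, a core protein of H/ACA particles, had 15.9, 13.4 and 17.3 FPKM in TP53INP2_OE libraries and 25.3, 24.2 and 24.9 FPKM in NC libraries (log2 fold change -0.65, limma adjusted p = 0.00334). The 3 TP53INP2_OE libraries lay well below the NC libraries. FBL, the methyltransferase of C/D particles, also fell (-0.26), as did NOP56 (-0.19), the helicases RUVBL1 (-0.24) and RUVBL2 (-0.49), and the nucleolar protein TCOF1 (-0.42). RPAP3, a subunit of the R2TP assembly complex, rose to 13.9 FPKM in TP53INP2_OE, against 10.0 FPKM in NC (log2 fold change 0.44). In the GC-adjusted fit 3 fell (NHP2, TCOF1 and PIH1D1) and RPAP3 rose. The list's median log2 fold change was -0.059.

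Among 21 factors of nonsense-mediated decay, the pathway that removes several spliced host RNAs, 6 rose and 6 fell, or 57.1% in all, against 35.0% of all tested genes. The exonuclease gene XRN1 (0.34) and the decapping enzyme gene DCP2 (0.30) were among those that rose, and the helicase gene UPF1 (-0.31) and the exon junction gene RBM8A (-0.26) among those that fell. The GC-adjusted fit left 2 past the threshold, RBM8A and RNPS1, both lower. Of 10 transcripts described as substrates of the pathway, 7 fell (70.0%, against 18.6% of all tested genes), among them ATF4, which averaged 89.6 ± 3.01 FPKM in TP53INP2_OE and 114 ± 6.25 FPKM in NC (SD, n = 3 each), ARFRP1 (-0.53), GADD45B (-0.46) and NAT9 (-0.37). Their count was 4 without NC replicate 1 or without NC replicate 2, fits in which 3265 and 3542 of all genes passed, against 5183 with all libraries. In the GC-adjusted fit 3 of the 10 fell, against 5.88% of all genes. ATF4 (limma adjusted p = 0.0535) and NAT9 (0.148) did not pass there. SMG5, which fell (-0.15), is in both this list and that of the decay factors, so it is counted in each.

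Of 19 tested TOP messenger RNAs other than those of ribosomal proteins, 3 rose and 7 fell (52.6% in all, against 35.0% of all tested genes), with a median log2 fold change of -0.012. EIF3E rose (0.33), while FAU (-0.44), EEF1D (-0.37) and EEF2 (-0.35) fell, so RNAs of the same class moved both ways. Of 12 regulators of such RNAs, 6 rose and 2 fell, so 66.7% passed, against 35.0% of all tested genes. EIF4EBP1, the translation repressor controlled by mTOR, had 99.7, 81.3 and 84.8 FPKM in TP53INP2_OE libraries and 163, 151 and 136 FPKM in NC libraries (log2 fold change -0.75), with no overlap. LARP4 (0.29), SSB (0.28) and TIA1 (0.27) rose. Without NC replicate 1 the number of regulators past the threshold was 4, without NC replicate 2 it was 3, and without TP53INP2_OE replicate 2 or replicate 3 it was 5. Calls over all genes dropped as well, from 5183 to 3265, 3542, 3872 and 4201 in the same order. EIF4EBP1 alone passed in the GC-adjusted fit.

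Protein-coding genes that hold a snoRNA were a larger set of 274, of which 203 were tested. Of these 45 rose and 51 fell (47.3%, against 35.0% of all tested genes). The share of all tested genes also counts 1597 lncRNA rows, of which 8.89% passed, so it is not a share of protein-coding genes alone. That applies to the lists above as well. The ribosomal protein gene RPS2 averaged 349.5 ± 31.1 FPKM in TP53INP2_OE and 596 ± 47.2 FPKM in NC (log2 fold change -0.77). RPL37 (-0.62), the ribosome assembly gene PPAN (-0.58) and PRRC2A (-0.53) followed. The count of 96 was 62 without NC replicate 1, a fit in which 3265 of all 14830 tested genes passed. It was 34 in the GC-adjusted fit, where 28 of the 203 fell and 6 rose, against 5.88% and 4.53% of all genes. Among 10 tested noncoding hosts outside the SNHG names, 1 passed (10.0%), against 8.89% of tested lncRNA rows and 35.0% of all tested genes. DANCR had 5.76, 6.73 and 7.63 FPKM in TP53INP2_OE libraries and 9.17, 7.79 and 9.38 FPKM in NC libraries (log2 fold change -0.35, limma adjusted p = 0.0410), and it did not pass in the GC-adjusted fit (adjusted p = 0.253). LINC00888, the other of the most abundant, did not pass (log2 fold change 0.13).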

How the data were processed

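RNA of 3 TP53INP2_OE and 3 NC libraries was sequenced after TruSeq RNA library preparation, per the labels' protocols. The authors deposited FPKM values for 60843 genes, with gene name, position and length, per the file headers. Bowtie 0.12.2 and the builds GRCh38 and mm8 appear without roles in the submitters' processing notes, and the sources used here do not state how reads were counted or whether strand was used. GENCODE 29 held 96.2% of the gene IDs, 92.8% of these with the same start or end, and positions are printed as deposited, on GRCh38. In each library, FPKM times length was divided by its smallest positive value, which made 100% of positive values whole (tolerance 0.01), and these were taken as reads.

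Genes averaging 0.5 FPKM or more were tested on log2(FPKM + 1) with limma 3.58.1 in R 4.3.3 (empirical Bayes with trend, Benjamini-Hochberg over all tested genes, threshold 0.05). Adjusted p-values come from this fit unless another is named. The scale understates changes of low genes. In the GC-adjusted fit, GC content of the longest GENCODE 29 transcript and log2 gene length were removed by natural splines with 5 degrees of freedom each. Other alternatives were a pseudocount of 0.1, no filter, a mean of 5 FPKM or more, TPM, quantile normalization, limma's voom with TMM factors on the recovered reads, a replicate block, and each library left out in turn. The fit was tested on simulated data.

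The members, gene lists and tests were chosen with earlier results of these data known. Named are all members, genes overlapping them (some of which are not reported here), tested snoRNA rows inside them, and from each list up to 4 called genes with the largest change, or the 2 most abundant where fewer than 2 were called. FBL, NOP56, RUVBL1, PIH1D1, RNPS1 and SMG5 were named after their values were seen. The labels do not say whether replicates were separate cultures, so the p-values may reflect technical spread alone.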

Additional observations from a re-analysis of the deposited data

How the results depend on the processing

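Of the 5 calls, those of SNHG32 and SNHG19 held in all 14 alternatives and that of SNHG7 in 13, while SNHG12 passed in 5 and SNHG17 in 7. Against 5 host genes that fell, 3 fell with no filter on low values, 3 with the replicate block and 2 in the GC-adjusted fit, and 3 to 4 with 1 library left out. Against 0 that rose, 1 rose with a mean of at least 5 FPKM, with TPM and with quantile normalization (GAS5), and with voom (SNHG14), and 0 to 1 with 1 library left out. In the GC-adjusted fit the numbers past the threshold were 4 snoRNP factors, 2 decay factors, 3 decay substrates, 6 TOP RNAs, 1 TOP regulator, 34 protein-coding hosts and 0 other noncoding hosts. With 1 library left out they were 7 to 10, 8 to 10, 4 to 6, 7 to 10, 3 to 7, 62 to 94 and 0 to 1 in the same order. TOP regulators numbered 5 with no filter. Other noncoding hosts numbered 0 with no filter and with TPM, and 2 with voom. Over all genes 5183 passed, 3648 with no filter and 1514 in the GC-adjusted fit. The number was 3265 without NC replicate 1 and 3542 without NC replicate 2, and fewer libraries were compared in these.

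Some host genes without a call changed sign in some settings. In the GC-adjusted fit the log2 fold change was -0.0214 for GAS5, -0.0156 for SNHG1, -0.015 for SNHG3, -0.048 for SNHG4, 0.0221 for SNHG15, 0.0122 for SNHG11, 0.0222 for SNHG20 and -0.015 for SNHG14. With TPM it was 0.00524 for SNHG6 and 0.00694 for SNHG15, and with quantile normalization 0.042 for SNHG6 and 0.00014 for SNHG15. With 1 library left out it ranged from -0.0937 to 0.0766 for SNHG6, -0.00828 to 0.0484 for SNHG3, -0.00133 to 0.145 for ZFAS1, -0.115 to 0.0575 for SNHG15, -0.107 to 0.0427 for SNHG8, -0.243 to 0.0248 for SNHG21 and -0.103 to 0.0734 for SNHG10. The cause was not tested.

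The groups share replicate numbers, but the deviations of same-numbered libraries correlated by only 0.017, 0.012 and 0.011, so the numbers were not taken to pair them. With the replicate block, SNHG12 (adjusted p = 0.0561) and SNHG17 (adjusted p = 0.0797) no longer passed, and 4396 genes passed in all. Of the 6 libraries, 4 correlated best with their own number. Depth limits SNHG19, SNHG21 and SNHG30, which rest on few reads, and the 8 host genes that were not tested.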
